A study of Rattus norvegicus with 9 samples.

Results

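Structural myelin genes encode the proteins from which oligodendrocytes build and hold together the myelin sheath. The members were taken by gene symbol: Mbp, Mog, Mag, Cnp, Mobp, Mal, Cldn11, Opalin and Pmp2, with every probe that carries the symbol. All 9 genes had a probe, 16 probes in all, out of 35129 probes and 12167 genes with a probe on the array. The rule uses gene symbols and no measured value, but the members were chosen with earlier results of these data known.

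The arrays hold RNA of cells sorted out of cultured oligodendrocyte progenitors, which came from newborn rats. The O4 population carried the O4 antigen and lacked NG2, the NG2/A2B5 population carried NG2 and A2B5, and the NG2 population is labelled for NG2 alone. The labels name no transgene, treatment or strain. There were 3 arrays for every population, each with a Roman numeral (I, II or III). The labels do not say that a numeral marks one of the study's 3 cultures. The p-values therefore rest on array-to-array spread, which may be partly technical.

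Oligodendrocyte progenitors divide and migrate before they stop dividing, pass through a premyelinating stage that displays the O4 sulfatide antigen, and then wrap axons. Myelin proteins appear in steps: Cnp is already present in premyelinating cells, Mbp and Mag follow, and Mog and Opalin are late genes of the mature sheath. Mbp seals the cytoplasmic faces of the membrane and Cnp keeps some of these channels open. Mobp is a small basic protein of compact central myelin, and Pmp2 is a lipid-binding protein best known from peripheral myelin. Mag is an adhesion molecule of the inner wrap that faces the axon, Mog lies on the outer surface, Cldn11 forms the tight junctions between the wraps, Mal is a raft proteolipid of vesicle sorting, and Opalin is a sialylated membrane protein.

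Intensities below are linear scaled values as deposited, and differences are given on the log2 scale. A probe's brightness depends on the probe as well as on the RNA, so levels are compared between arrays and not between genes. As a guide to background, the 25th percentile of all probes was used, which lay between 0.205 and 0.255 on the 9 arrays. In sorted cells measured in bulk, fewer cells that express a gene and less RNA per cell cannot be told apart. Of the lineage markers, 6 of 8 were measured and 5 read above the 25th percentile on every array. The sixth, Pdgfra, the PDGF receptor of progenitors, did so on 8.

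The start regions of 3 members are shown: Mobp, which holds the most copies of a short word described next, and Cnp and Mag, the members whose probes read highest on their arrays. They run from 250 bases before to 50 bases after the gene's start in RefSeq, assembly GRCr8, on the gene's strand. The region of Mobp is chr8:128746982-128747281 on the plus strand, that of Cnp is chr10:86011254-86011553 on the plus strand, and that of Mag is chr1:95290995-95291294 on the minus strand. Capitals mark the word ACAAAG, of the kind bound by SOX factors. On the opposite strand the same word reads CTTTGT.
Mobp: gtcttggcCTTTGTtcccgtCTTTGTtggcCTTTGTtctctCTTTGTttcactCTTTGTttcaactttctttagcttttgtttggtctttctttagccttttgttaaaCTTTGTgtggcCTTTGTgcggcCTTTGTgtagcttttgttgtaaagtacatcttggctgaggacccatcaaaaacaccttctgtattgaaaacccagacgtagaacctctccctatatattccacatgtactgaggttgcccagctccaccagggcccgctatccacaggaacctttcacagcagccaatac
Cnp: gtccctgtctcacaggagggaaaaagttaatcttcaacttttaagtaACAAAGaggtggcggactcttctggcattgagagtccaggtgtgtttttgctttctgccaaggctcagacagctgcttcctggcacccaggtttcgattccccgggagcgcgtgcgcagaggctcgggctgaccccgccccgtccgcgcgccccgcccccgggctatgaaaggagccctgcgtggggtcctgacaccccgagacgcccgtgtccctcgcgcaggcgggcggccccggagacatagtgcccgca
Mag: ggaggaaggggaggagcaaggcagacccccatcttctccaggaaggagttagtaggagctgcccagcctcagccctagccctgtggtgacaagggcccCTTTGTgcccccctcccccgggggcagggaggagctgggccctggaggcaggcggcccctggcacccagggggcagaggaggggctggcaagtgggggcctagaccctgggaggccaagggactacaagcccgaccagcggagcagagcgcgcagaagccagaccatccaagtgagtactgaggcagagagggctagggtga

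Each word named here was searched on both strands, and ACAAAG was picked out after the sequences had been seen. The Mobp region holds 8 copies of ACAAAG, all on the strand opposite to the gene. Their leftmost bases lie between positions -242 and -120 from the start, and no copy overlaps another. Of 33465 rat start regions of this length, 18.8% hold at least 1 copy, 0.224% hold 3 or more, and 3 regions (0.00896%) hold 8 or more, Mobp among them. Opalin has 2 copies, Cnp and Mag have 1 each, and Mal and Cldn11 have 0. Of the 2 Mbp regions, 1 holds a single copy. GGGCGG, the core of the GC box, occurs 3 times each in Cnp and in the first Mbp region, 2 times in Mal, and not in Mag, Mobp or Opalin, and 33.1% of all regions hold it. ACAATG, present in 13.2% of all regions, is in 2 member regions, the second of Mbp with 2 copies and that of Opalin with 1. A match describes these letters and is not a binding site. RefSeq regions were found for 7 of the 9 members.

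Of the 16 member probes, 5 read above the 25th percentile on all 9 arrays: 1 probe each of Cnp, Mag, Mal, Pmp2 and Mobp. The probes of Mbp, Mog, Cldn11 and Opalin read at or near background on several or all arrays. The Mobp probe read between the 39.0 and 48.0 percentile of its arrays, under the median on each, and that of Pmp2 between 43.1 and 56.9. So the label holds as a list of genes, while the RNA of at least 4 of the 9 genes was not measured well above background in these cells. No member probe was called in any contrast between populations.

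Cnp, a phosphodiesterase-like enzyme of the oligodendrocyte membrane, was the member whose probe read highest on its arrays, between the 99.1 and 99.8 percentile of all probes. Its intensity in arrays I, II and III was 222.9, 157.9 and 265.0 in O4 cells, 177.4, 183.5 and 256.2 in NG2/A2B5 cells, and 222.9, 155.1 and 181.8 in NG2 cells. All 3 populations overlapped. On the log2 scale the means were 7.72 ± 0.38 in O4 cells, 7.66 ± 0.29 in NG2/A2B5 cells and 7.53 ± 0.26 in NG2 cells (SD, n = 3 each). The difference of O4 minus NG2 was 0.19 with a 95% interval of -0.43 to 0.81, and that of O4 minus NG2/A2B5 was 0.05 (-0.56 to 0.67). The first interval reaches a 1.75-fold excess in O4, so a modest difference in Cnp was not resolved. O4 minus NG2 came to 0.02 without array III of O4 and to 0.40 without array II of O4, and O4 minus NG2/A2B5 turned to -0.12 under quantile normalization.

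Mag, the inner-wrap adhesion molecule, was read by 1 bright and 1 dim probe. The bright probe gave 13.3, 16.8 and 12.4 in arrays I, II and III of O4, 11.7, 11.8 and 13.3 in NG2/A2B5, and 10.8, 16.6 and 8.77 in NG2. The highest arrays were numbered II in O4 and in NG2, and the populations overlapped. Its log2 difference of O4 minus NG2 was 0.27 (95% interval -0.33 to 0.88), and that of O4 minus NG2/A2B5 was 0.20 (-0.40 to 0.80). O4 minus NG2 came to 0.07 without array III of NG2 and to 0.53 without array II of NG2, and O4 minus NG2/A2B5 came to 0.07 without array II of O4. None of these was called. The dim Mag probe read between 0.0321 and 0.213 and passed the 25th percentile on 1 array. The 2 probes did not track each other over the 9 arrays (r = -0.062). Mag is described by the bright one, which read above the 25th percentile on all 9.

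Mal, the raft proteolipid, gave 7.19, 6.51 and 6.79 in O4, 6.91, 5.69 and 5.33 in NG2/A2B5, and 5.95, 6.11 and 4.15 in NG2. The 3 O4 arrays lay above the 3 NG2 arrays, while NG2/A2B5 overlapped both. The log2 difference of O4 minus NG2 was 0.36 (SE 0.20, 95% interval -0.12 to 0.83) with an unadjusted p of 0.12 and an adjusted p of 0.707 in limma, so it was not called. Within numerals it was 0.27, 0.09 and 0.71 for I, II and III. It came to 0.18 without array III of NG2, the lowest Mal reading.

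Pmp2, the lipid-binding protein, had the member probe with the smallest p between populations. Its intensity was 1.60, 1.39 and 1.65 in O4, 0.856, 0.799 and 0.686 in NG2/A2B5, and 1.12, 0.991 and 1.72 in NG2. Every NG2/A2B5 array lay below every array of the other populations, and NG2 spanned the O4 range with array III at the top. O4 minus NG2/A2B5 was 0.99 on the log2 scale (SE 0.24, 95% interval 0.44 to 1.54), a fold of 1.98, with an unadjusted p of 0.00345 and an adjusted p of 0.947 in limma. The sign was the same within each numeral, at 0.90, 0.79 and 1.26. This difference was not called. Its unadjusted p in limma was under 0.05 under all 19 other settings, with differences between 0.90 and 1.06. Those settings refit the same arrays, and the probe was singled out for its small p, so they add no independent support. NG2/A2B5 minus NG2 was -0.68 (SE 0.24, 95% interval -1.23 to -0.13) with an unadjusted p of 0.0221 and the limma adjusted p at its ceiling. It came to -0.44 without array III of NG2, with an unadjusted p of 0.0581. These 2 differences share the NG2/A2B5 arrays and are not independent.

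Since Pmp2 is also a gene of Schwann cells, the 9 measured of 10 Schwann markers were read beside it. Their summed intensity was 129 to 155 on the O4 arrays, 126 to 178 on the NG2/A2B5 arrays and 159 to 193 on the NG2 arrays, and 5 of the 9 read above the 25th percentile on every array. The summed microglial markers ran from 7.18 to 10.2 on the O4 arrays, against 5.66 to 7.04 on the NG2/A2B5 arrays and 5.93 to 7.08 on the NG2 arrays. Only 2 of 9 microglial markers passed the 25th percentile on all arrays. The 4 measured of 8 neuronal markers summed to 13.3 to 17.1 on the O4 arrays, 10.7 to 13.8 on the NG2/A2B5 arrays and 7.51 to 12.4 on the NG2 arrays, and 2 of them passed it on all arrays. The 6 measured of 7 pericyte and fibroblast markers summed to 5.80 to 9.58 on the O4 arrays, 9.09 to 12.2 on the NG2/A2B5 arrays and 9.33 to 18.1 on the NG2 arrays. The 8 astrocyte markers summed to 72.4 to 164 on the O4 arrays, 107 to 168 on the NG2/A2B5 arrays and 97.1 to 119 on the NG2 arrays, and the 5 measured of 6 endothelial markers to 6.11 to 7.24, 5.81 to 6.59 and 5.67 to 8.16 in that order. A few bright probes carried these sums. On O4 arrays I, II and III, Pmp22 of the Schwann list read 90.3, 73.9 and 120. Itgam of the microglial list read 6.50, 7.94 and 5.24, and Gad1 of the neuronal list 12.1, 15.4 and 11.9. Col1a1 likewise led the pericyte and fibroblast sum, and Slc1a3 and Aldoc the astrocyte sum. The sums are therefore no measure of the content of a cell type. No marker of any list was called in limma. The part of these lists in the Pmp2 and Mal values was not tested.

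Mobp, the basic protein of compact myelin, had 3 probes of different behaviour. The brightest gave 0.710, 0.879 and 0.510 in O4, 0.822, 0.638 and 0.926 in NG2/A2B5, and 0.738, 0.925 and 0.714 in NG2, with all populations overlapping. Its log2 difference of O4 minus NG2 was -0.21 (95% interval -0.80 to 0.39), and 0.0048 without array III of O4. The second probe gave 0.194, 0.397 and 0.333 in O4, 0.140, 0.179 and 0.201 in NG2/A2B5, and 0.321, 0.273 and 0.440 in NG2, above the 25th percentile on 5 arrays. Its NG2/A2B5 arrays lay below the NG2 arrays, with a log2 difference of -0.98 (SE 0.32) and an unadjusted p of 0.0169, not called in limma. The dimmest probe never passed the 25th percentile. The brightest and dimmest probes went together over the 9 arrays (r = 0.821), and the second went with neither (r = -0.133 and -0.223), so the probes disagree on how Mobp differs between populations.

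**Figure D1:**
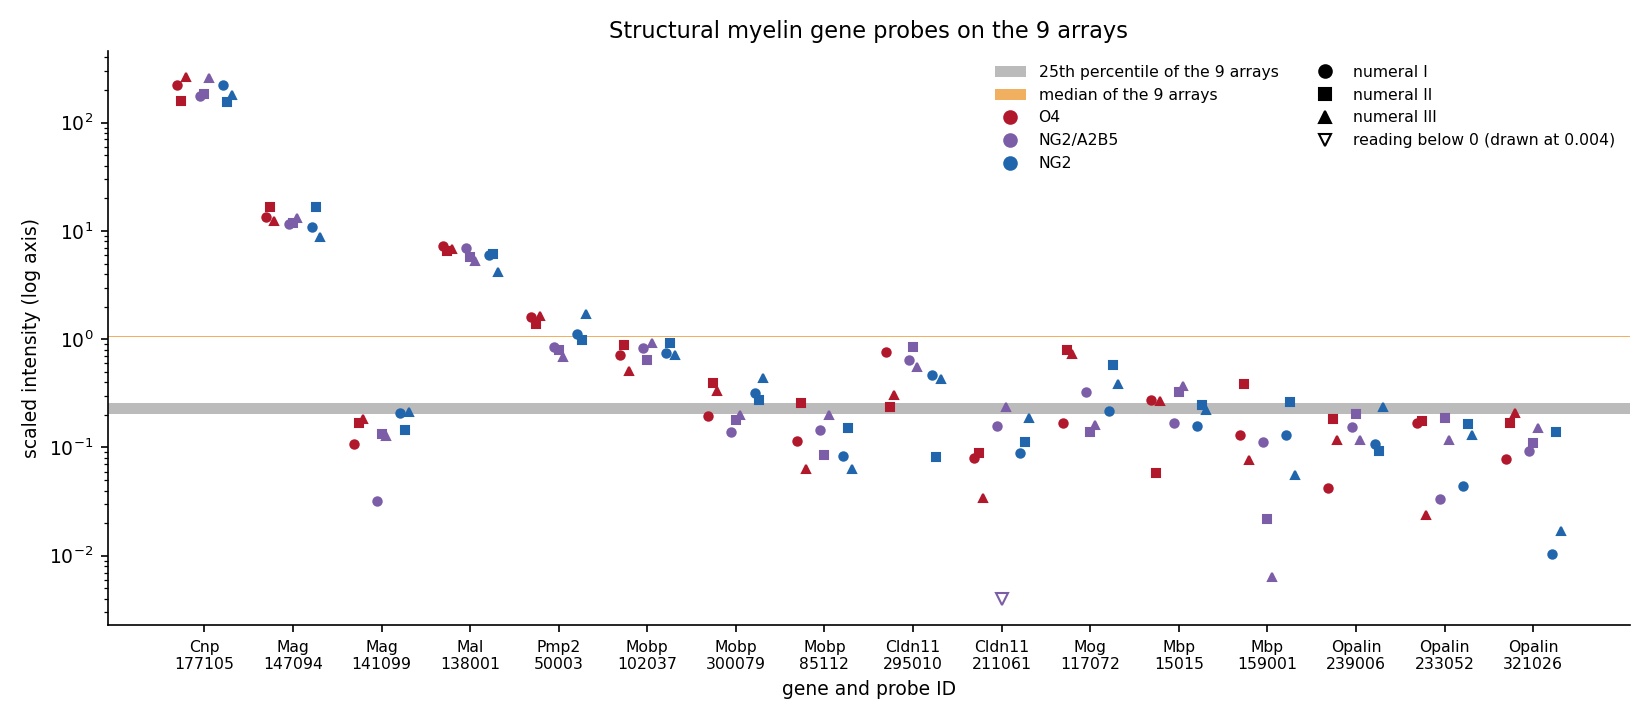
Deposited scaled intensity (logarithmic axis) of the 16 member probes on the 9 arrays, with colours for O4, NG2/A2B5 and NG2, marker shapes for the numerals, and bands for the range of the arrays' 25th percentiles and medians; 1 Cldn11 reading below 0 is drawn open at the bottom. One probe each of Cnp, Mag, Mal, Pmp2 and Mobp sits above the 25th percentile on all 9 arrays, and the other 11 probes fall below it on 2 or more arrays.

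Mbp, the major protein of the compacted membrane, read 0.275, 0.0581 and 0.266 in O4, 0.170, 0.322 and 0.371 in NG2/A2B5, and 0.158, 0.249 and 0.224 in NG2 by its brighter probe. It passed the 25th percentile on 6 arrays, so these readings sit at background. The other Mbp probe read 0.130, 0.384 and 0.0768 in O4, 0.113, 0.0218 and 0.0064 in NG2/A2B5, and 0.129, 0.262 and 0.0560 in NG2, and passed it on 2. The 2 probes ran against each other over the arrays (r = -0.705).

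Mog, a late surface protein, read 0.170, 0.802 and 0.737 in O4, 0.326, 0.138 and 0.162 in NG2/A2B5, and 0.219, 0.576 and 0.386 in NG2. Arrays II and III of O4 were the highest, but array I of O4 read under the 25th percentile. The log2 difference of O4 minus NG2/A2B5 was 1.26 with a 95% interval of -0.32 to 2.84, and it was not called. It came to 1.99 without array I of O4.

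Cldn11, the tight junction protein, read 0.754, 0.236 and 0.303 in O4, 0.648, 0.846 and 0.549 in NG2/A2B5, and 0.463, 0.0816 and 0.429 in NG2 by its brighter probe. The NG2/A2B5 arrays lay above the NG2 arrays, at a log2 difference of 1.41 (SE 0.73) with an unadjusted p of 0.091. It came to 0.59 without array II of NG2, the lowest of these readings. The other Cldn11 probe passed the 25th percentile on 1 array. The 3 Opalin probes read at most 0.239 and passed it on 1, 0 and 0 arrays. One of them differed by 2.27 between O4 and NG2 (unadjusted p 0.0391, limma adjusted p 0.632), a value among background readings.

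Counted over the 16 probes, 0 were called in O4 minus NG2 at an adjusted p under 0.05, against 0.00571% of all probes tested. Also 0 were called in O4 minus NG2/A2B5 and in NG2/A2B5 minus NG2, where the share over all probes was 0.00286% each time. At an unadjusted p under 0.05 the member counts were 1 higher and 0 lower in O4 minus NG2 (7.76% of all probes in either direction), 3 higher and 0 lower in O4 minus NG2/A2B5 (4.42%), and 0 higher and 2 lower in NG2/A2B5 minus NG2 (4.15%). Of these probes, that of Pmp2 alone read above the 25th percentile on all 9 arrays. Its NG2/A2B5 readings still lay under the array medians. The arrays of the 2 populations did not overlap for 1 member probe in O4 minus NG2 (14.4% of all probes), 1 in O4 minus NG2/A2B5 (10.6%) and 4 in NG2/A2B5 minus NG2 (9.73%). Of the 4, those of Pmp2, the dim Mag probe and the second Mobp probe were lower, and the brighter Cldn11 probe was higher. Only that of Pmp2 passed the 25th percentile on all 9 arrays. The median log2 difference of the 16 was 0.23, 0.20 and 0.03 in these 3 contrasts, against 0.01, 0.01 and -0.01 over all probes. Signs were split, at 9 positive and 7 negative, 10 and 6, and 8 and 8 in the same order. These medians include probes at background and several probes of a gene, so they show no shift of the members. With the numeral as a fixed block no probe of the array was called in any of the 3 contrasts (0%).

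**Figure D2:**
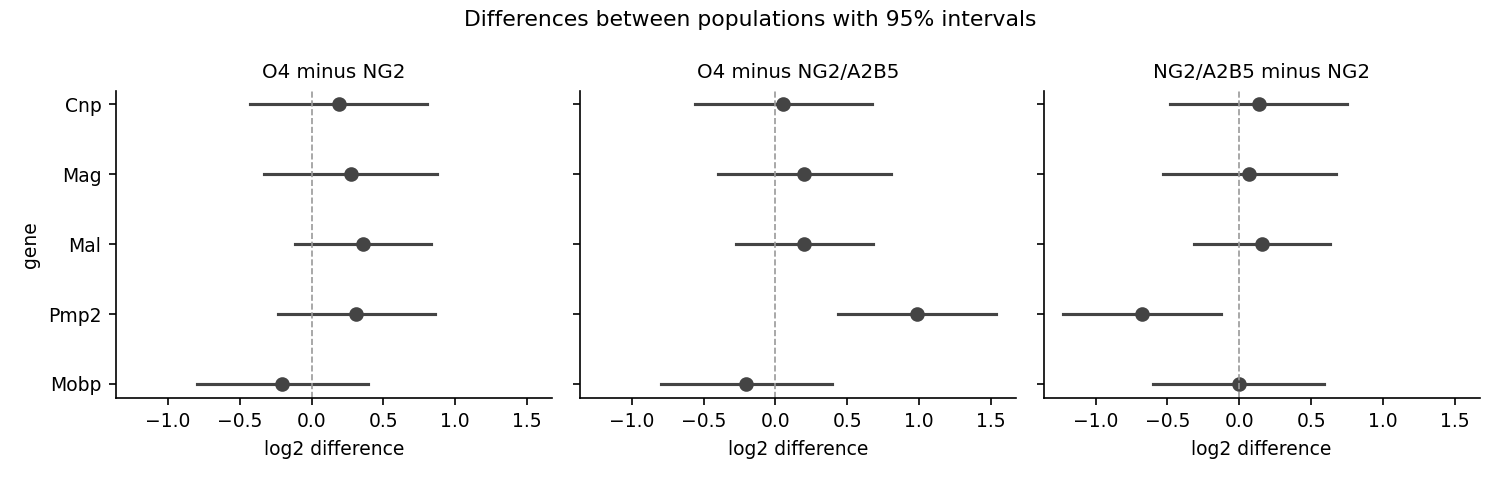
Log2 differences of the 5 brighter member probes in O4 minus NG2, O4 minus NG2/A2B5 and NG2/A2B5 minus NG2, with 95% intervals from limma. The Pmp2 interval lies above 0 in O4 minus NG2/A2B5 (0.44 to 1.54), while those of Cnp, Mag and Mal include 0 in all 3 contrasts.

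The spread within populations set the precision of the population contrasts. Their fit had no numeral term, so this spread includes any numeral shift. With a fixed numeral block, SEs in O4 minus NG2 fell from 0.26 to 0.21 for Cnp and 0.26 to 0.23 for Mag. They fell from 0.20 to 0.17 for Mal and 0.24 to 0.23 for Pmp2, and rose from 0.26 to 0.27 for the brightest Mobp probe. The Cnp interval became -0.33 to 0.71. The unadjusted limma p became 0.0852 for Mal, and 0.00692 for Pmp2 in O4 minus NG2/A2B5. None was called. Over all probes the median SD within a population was 1.14, 0.55, 0.30 and 0.25 on the log2 scale in 4 equal classes of rising mean intensity. Cnp and Mag, in class 4, had SDs of 0.32 and 0.31, larger than 73.5% and 71.5% of the probes there. Mal and Pmp2, in class 3, had SDs of 0.22 and 0.27. The brightest Mobp probe, in class 2, had an SD of 0.30, larger than 15.9% of its class. The members near background reached 3.02, in the dim Cldn11 probe, whose value was below 0 on 1 array.

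**Figure D3:**
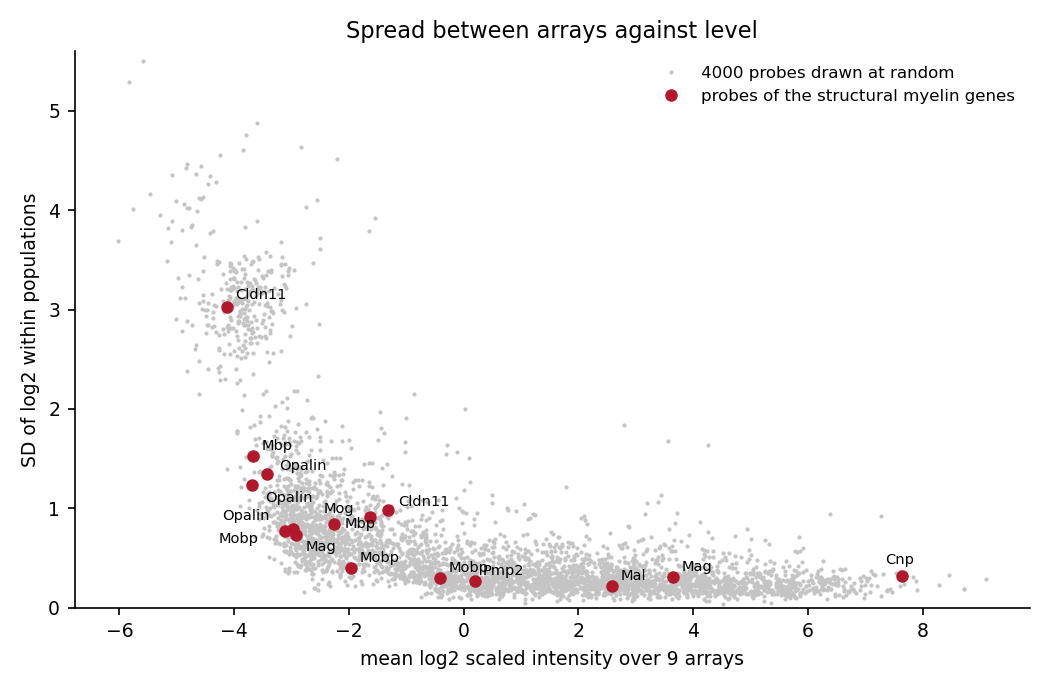
SD within populations (log2) against mean log2 intensity for a random sample of the probes (grey), with the 16 member probes named. Dim probes spread more, and the 5 brighter members lie between SDs of 0.22 and 0.32.

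Each numeral holds 1 array of every population, so the members were also compared between numerals, in a model with population as a term. Of the 5 brighter members Cnp had the smallest p: in arrays III minus II its log2 difference was 0.49 (95% interval -0.03 to 1.01, unadjusted p 0.0621, limma adjusted p 0.328). Mag differed by -0.40 (-0.97 to 0.18), Mal by -0.20 (-0.63 to 0.23), Pmp2 by 0.28 (-0.31 to 0.86) and Mobp by -0.21 (-0.89 to 0.48). With 1 array left out, Cnp ranged from 0.38 to 0.66, Mag from -0.62 without array II of NG2/A2B5 to -0.19 without array II of NG2, Mal from -0.32 without array III of O4 to -0.06 without array III of NG2, and Pmp2 from 0.02 without array III of NG2 to 0.51 without array III of NG2/A2B5. Mobp ranged from -0.51 without array II of NG2/A2B5 to 0.03 without array III of O4. No member probe was called between numerals, and 0 of all probes were (0%). At an unadjusted p under 0.05, 1 of the 16 differed in III minus II, the dim Mbp probe, which was lower (16.6% of all probes in either direction). The counts were 0 in III minus I (8.96%) and 0 in II minus I (11.6%). The arrays did not overlap for 1 member probe in each of these 3 contrasts (21.4%, 15.8% and 17.6% of all probes), and all 3 were background readings of Opalin and Mbp.

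**Figure D4:**
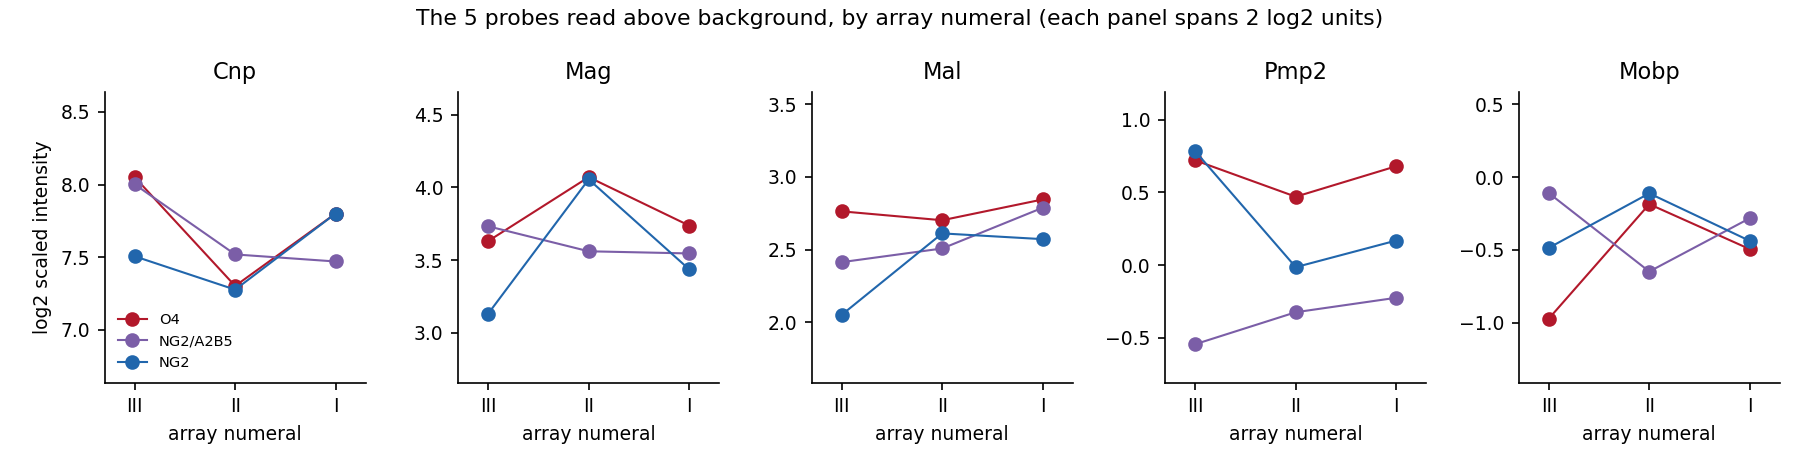
Log2 intensity of the 5 brighter members by numeral III, II and I, with 1 line for each population and panels of equal height in log2 units. Cnp is highest in array III of O4 and NG2/A2B5, at 265.0 and 256.2, and Mag is highest in array II of O4 and NG2, at 16.8 and 16.6.

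After the values were seen, the ratio of Mag to Cnp within each array was examined. On the log2 scale it was -4.42, -4.27 and -4.37 in arrays III of O4, NG2/A2B5 and NG2, against -3.23, -3.96 and -3.22 in arrays II. In arrays I it was -4.06, -3.93 and -4.36. All arrays numbered III lay below all arrays numbered II, with a mean difference of -0.88. Since the ratio was picked for these values, this is a description and no test is given.

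Other genes of myelin and of maturing oligodendrocytes, listed with earlier results of these data known, gave a comparison that is not independent. Of 50 such genes 41 were measured. Between populations they split evenly: 21 positive and 20 negative differences in O4 minus NG2 (18 and 23 under quantile normalization), with a median of 0.01, and 18 and 23 in each of the other contrasts, with medians of -0.02 in O4 minus NG2/A2B5 and -0.11 in NG2/A2B5 minus NG2. None was called in limma, and 2 higher and 1 lower, 3 higher and 0 lower, and 2 higher and 3 lower had an unadjusted p under 0.05, in the same order of contrasts. The smallest p in O4 minus NG2 belonged to Hapln2, a link protein of the matrix at nodes of Ranvier, at 1.19 (a probe above the 25th percentile on 5 arrays and below it on all 3 of NG2), Gpm6b, a membrane glycoprotein, at -0.63, and Tppp3, a tubulin-binding protein, at 1.05. In O4 minus NG2/A2B5 they belonged to Nkx6-2, a transcription factor of maturing oligodendrocytes, at 1.22, Lpar1, a lysophosphatidic acid receptor, at 0.82, and Evi2a at 0.53. The same 3 genes led NG2/A2B5 minus NG2, at -0.99, -0.94 and -0.63, a contrast that shares the NG2/A2B5 arrays. Both Nkx6-2 differences rest on NG2/A2B5 readings near the 25th percentile (0.262, 0.209 and 0.316), with array II below it.

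Between numerals the wider list and the members gave different counts. In III minus II, 33 of the 41 genes had positive and 8 negative differences, with a median of 0.62 against -0.05 over all probes. Of these, 19 were higher and 0 lower at an unadjusted p under 0.05 (7.83% of all probes higher and 8.77% lower), and 0 were called in limma. With limma's trend and robust variance estimates, 18 of the 41 were called higher and 0 lower, against 3.91% of all probes higher and 3.89% lower, while 0 of the 16 member probes were called and their lowest adjusted p was 0.0827. That lowest value belonged to Cnp, which was higher in III. Its unadjusted p in limma was under 0.05 in 7 of 16 other settings. The 2 counts are not alike. Of the 41 genes, each read by its brightest probe, 30 passed the 25th percentile on every array, against 5 of the 16 member probes. The shares over all probes likewise include dim probes and several probes of a gene, so they are no equal base for the 41 genes. The difference between the 2 lists was not tested. In II minus I, 7 differences were positive and 34 negative, with a median of -0.32 against 0.09 over all probes. At an unadjusted p under 0.05 in limma, 0 were higher and 12 lower (11.6% of all probes in either direction). Trend and robust estimates called 0 higher and 7 lower, against 1.3% of all probes higher and 1.27% lower. In III minus I, 27 were positive and 14 negative, with a median of 0.21 against 0.04 over all probes. Of these, 9 were higher and 1 lower at an unadjusted p under 0.05 in limma (8.96% of all probes in either direction). With trend and robust estimates, 1 was called higher and 0 lower, against 0.206% of all probes higher and 0.274% lower.

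Markers of other cells also differed in arrays III minus II, without being called. Of the astrocyte markers 4 were positive and 4 negative, with Gfap at 1.72, Aldoc at 1.27 and Gja1 at -2.06, and of the Schwann markers 4 were positive and 5 negative, with Egr2 at -1.35. Pmp22, the brightest Schwann marker, went the other way. It read 120, 135 and 157 in arrays III of O4, NG2/A2B5 and NG2, against 73.9, 92.5 and 114 in arrays II. Of the pericyte and fibroblast markers 1 was positive and 5 negative, with a median of -0.53. The genes named here were picked after their values were seen, and the part of such cells in the counts of the wider list was not tested. The Gfap readings in arrays II (0.113, 0.139 and 0.187) lay under the 25th percentile. Those of Gja1 in arrays III (0.253, 0.274 and 0.168) lay near it.

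Examples, chosen after their values were seen, were Fa2h, which hydroxylates the fatty acids of myelin lipids, and Myrf, the transcription factor that switches on myelin genes. Fa2h read 8.48, 5.43 and 7.04 in arrays III of O4, NG2/A2B5 and NG2, against 1.65, 1.52 and 1.05 in arrays II, a log2 difference of 2.32 (SE 0.23, limma adjusted p 0.0726). Myrf read 24.8, 19.6 and 24.4 in arrays III, against 8.58, 8.20 and 5.05 in arrays II, a difference of 1.69 (SE 0.22, limma adjusted p 0.081). In both genes the arrays of the 2 numerals did not overlap. Cnp and Mag gave smaller differences in this contrast. That of Cnp, at 0.49, had the sign of Fa2h and Myrf and lay near the median of 0.62 of the 41 genes. That of Mag, at -0.40, had the other sign.

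**Figure D5:**
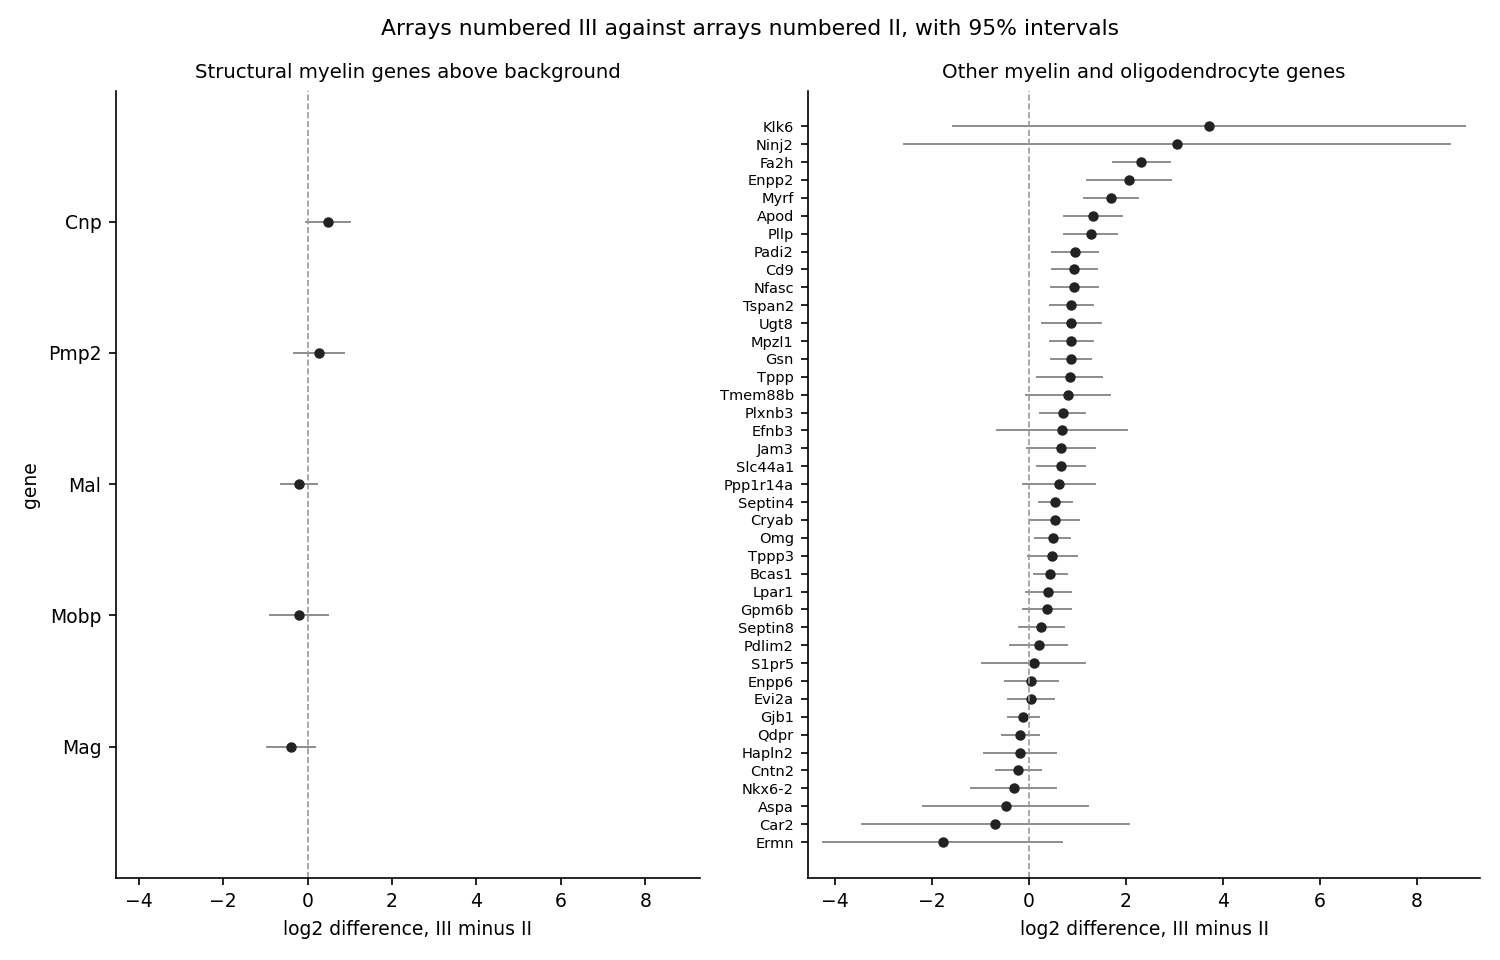
Log2 difference of arrays III minus II, with 95% intervals, for the 5 brighter members and for the 41 other myelin and oligodendrocyte genes measured. Of the other genes, 33 lie above 0, and the members lie on both sides, with Cnp at 0.49 and Mag at -0.40.

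Among the 5 brighter members, the highest correlation over the 9 arrays was that of Mag and Mal (r = 0.578), which came to -0.021 without the 2 arrays farthest from the median of Mag. Cnp with Mag gave -0.282, and Cnp and Pmp2 each gave -0.477 with Mobp. These are descriptions over 9 arrays that share populations and numerals. The genes whose probe went most closely with each member, out of 8882 candidates, were Grik5 (r = 0.923) and Ccdc65 (0.922) for Cnp, Sptbn4 (0.972) and Hgf (0.966) for Mag, and Man2a1 (0.982) and Dlk1 (0.955) for Mal. For Pmp2 they were Imp4 (0.887) and Necab3 (0.877), and for Mobp they were Iqsec3 (0.918) and Akr1b10 (0.904). No gene of this set was named for more than 1 member, and no member was among them. They are the 2 highest of 8882 correlations over only 9 arrays. Values this high can arise from such a search alone, and shared regulation was not tested.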

How the data were processed

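The authors deposited a table of scaled, linear probe intensity, with 35129 probes and 9 arrays. Per the labels, RNA was amplified by in vitro transcription and spiked RNA was used to normalize. The scaling formula, scanner and software were not given in the sources used here. Array medians lay between 1.05 and 1.07, and no further normalization was applied. Values coded as missing (154 to 203 per array) were left out, and values at or below 0 were set to the array's smallest positive value before the deposited intensities were taken to log2.

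All probes entered 1 fit per question by lmFit, then eBayes (limma 3.58.1, R 4.3.3, two-sided tests), with 6 residual degrees of freedom for populations and 4 for numerals. Calls needed an adjusted p under 0.05, by Benjamini-Hochberg across every probe tested. Symbols came from the platform annotation: 16865 probes carry 1 symbol, 165 several and 18099 none, and 16836 identifiers matched RefSeq. The number of arrays limits the precision, and the depth of an array is not defined.

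Deviations from population means, over probes above the 25th percentile on all arrays, correlated at 0.179 to 0.556 between arrays of the same numeral and at -0.463 to 0.0483 between others. All 9 arrays matched best within their own numeral, so the numerals pair the arrays. Pairing is from the data, not from the labels.

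Members and lists were chosen with earlier results of these data known. Named are all members, the 3 genes of the other myelin list with the smallest p per population contrast, and the 2 genes most like each member above background. The same rule was applied to the marker lists, whose genes are printed only in part. The fits were tested on simulated data. Other settings were scaling, floor, filter on dim probes, 1 probe per gene, trend and robust variance (statmod 1.5.0), numeral block, the 6 arrays compared, and leaving out 1 array at a time. Figures used matplotlib 3.10.9 in Python 3.11.15.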

Additional observations from a re-analysis of the deposited data

How the results depend on the processing

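No member probe was called under any setting. Over 870 member values in population contrasts, 7 moved by more than 1 SD and 48 changed sign, 12 of these in the 5 probes above background. Over 726 in numeral contrasts, 18 moved and 45 changed sign, 8 of them in those 5 probes. Counts over all probes were less stable. In the order O4 minus NG2, O4 minus NG2/A2B5, NG2/A2B5 minus NG2 and the F test, 2, 1, 1 and 2 probes were called. Quantile normalization, median centring and a random replicate block changed none of these counts. A floor at the 25th percentile, a filter at that percentile, and trend and robust variance each gave 0 for all 4. One probe per gene gave 1, 1, 0 and 1, and only the 6 arrays compared gave 0 in each contrast. The numerals pair the arrays: with the numeral as a fixed replicate block the counts were 0, 0, 0 and 0 (no member call changed), and with that replicate block plus trend and robust variance 5, 0, 46 and 27. Leaving out 1 array gave 1 to 8, 0 to 12, 1 to 12 and 1 to 13. Between numerals 0 probes were called in III minus II, III minus I, II minus I and the F test. That floor gave 1563, 2, 277 and 771, the filter 910, 0, 93 and 327, 1 probe per gene 423, 0, 28 and 82, trend and robust variance 2730, 168, 902 and 2237, and no population term 250, 2, 19 and 50. Leaving out 1 array gave 0 to 3, 0 to 2, 0 to 1 and 0 to 2. The cause was not tested. Signal near background limits the readings of Mbp, Mog, Cldn11 and Opalin, and the brightest Mobp probe read under the array median throughout.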
